A study of Mus musculus with 6 samples.

Results

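A set of 9 genes around the edge of the circadian clock was followed in heads of mouse embryos: Bhlhe40, Bhlhe41, Rora, Rorb, Tef, Hlf, Nfil3, Ciart and Npas2. They were taken by symbol, through the RefSeq accession of each probe, and all 9 were on the array with 10 probes in all, out of 20021 genes with a named probe. Heads with the first branchial arch, the embryonic jaw tissue, were dissected at embryonic day 9.5 from wild type embryos and from embryos null for Arid3b, a gene for a nuclear protein of the ARID family that binds AT-rich DNA. Each group had 3 samples, and each sample pooled 4 embryos and was read on 1 Agilent array of a single colour. The labels give neither the strain, the deleted part of the gene nor the hour of dissection. Whether pools share litters is not stated either, and the p-values cover only the spread from pool to pool, which may be technical. The genes were proposed with results of this same contrast known, so their differences between null and wild type are a description, and the p-values printed with them give their place in a fit over all genes and support nothing further.

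The circadian clock is a feedback loop in which Clock, or its relative Npas2, pairs with Arntl and drives the Per and Cry genes, whose products return to repress it. Bhlhe40 and Bhlhe41 are basic helix-loop-helix repressors that compete for the same E-box sites, and they are also known as genes induced by low oxygen. Ror factors activate Arntl through elements shared with the Nr1d repressors, Tef, Hlf and Dbp activate D-box genes, Nfil3 represses them, and Ciart represses the Clock and Arntl pair. In early embryos the clock is generally held not to cycle as it does in adult tissue.

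Promoters were searched for the elements through which the clock factors and the hypoxia-inducible factor HIF are known to act. Those shown hold an E-box (Bhlhe41, Ciart, Tef), the Ror element (Nfil3) or, for contrast, belong to the Ror gene that was not called (Rorb). RefSeq windows of 300 bases, 250 before the gene start and 50 after it, were matched for 8 of the 9 genes on assembly GRCm38.p6, and Bhlhe40 had no match. Both strands were searched for ACGTG and GCGTG (the HIF core), CACGTG (the E-box, each of which also holds the HIF core on both strands), TTATGTAA and TTACGTAA (the D-box) and TAGGTCA and TGGGTCA (the Ror element). Below, capitals mark every match, and sequences run 5′ to 3′ along the gene's strand.
Bhlhe41, chr6:145865371-145865670, minus strand: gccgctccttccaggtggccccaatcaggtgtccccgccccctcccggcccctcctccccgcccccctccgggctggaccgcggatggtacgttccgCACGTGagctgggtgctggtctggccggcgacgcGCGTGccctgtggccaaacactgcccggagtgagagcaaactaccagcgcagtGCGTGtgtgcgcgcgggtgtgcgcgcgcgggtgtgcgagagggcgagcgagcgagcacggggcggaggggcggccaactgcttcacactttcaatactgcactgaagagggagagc
Ciart, chr3:95882179-95882478, minus strand: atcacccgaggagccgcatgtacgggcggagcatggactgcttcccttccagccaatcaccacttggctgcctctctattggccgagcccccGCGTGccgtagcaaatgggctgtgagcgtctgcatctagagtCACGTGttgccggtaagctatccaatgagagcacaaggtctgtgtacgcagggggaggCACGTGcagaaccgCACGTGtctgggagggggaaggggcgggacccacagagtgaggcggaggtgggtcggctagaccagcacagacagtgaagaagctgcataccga
Tef, first of its windows, chr15:81802423-81802722, plus strand: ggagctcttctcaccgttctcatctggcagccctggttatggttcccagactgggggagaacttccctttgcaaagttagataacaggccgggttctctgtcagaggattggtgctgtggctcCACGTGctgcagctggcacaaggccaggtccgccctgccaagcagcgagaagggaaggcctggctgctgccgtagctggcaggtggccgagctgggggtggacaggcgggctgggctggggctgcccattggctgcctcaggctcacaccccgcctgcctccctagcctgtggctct
Nfil3, chr13:52980990-52981289, minus strand: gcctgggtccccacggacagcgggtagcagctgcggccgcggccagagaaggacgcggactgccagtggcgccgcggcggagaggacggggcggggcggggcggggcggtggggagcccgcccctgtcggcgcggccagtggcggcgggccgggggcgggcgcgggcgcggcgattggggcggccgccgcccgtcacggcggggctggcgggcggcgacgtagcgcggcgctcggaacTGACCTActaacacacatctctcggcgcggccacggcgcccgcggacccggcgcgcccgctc
Rorb, first of its windows, chr19:19111147-19111446, minus strand: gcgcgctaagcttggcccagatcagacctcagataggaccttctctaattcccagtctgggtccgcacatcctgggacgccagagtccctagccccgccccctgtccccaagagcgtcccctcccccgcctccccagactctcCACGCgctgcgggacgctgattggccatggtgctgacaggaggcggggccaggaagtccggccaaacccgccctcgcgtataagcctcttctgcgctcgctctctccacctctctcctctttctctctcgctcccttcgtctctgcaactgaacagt

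An E-box was found in the windows of Ciart, Bhlhe41 and Tef. Ciart held 3 of them, at -116, -58 and -44 bases from the gene start, and 0.0891% of the 32544 distinct windows in the table held 3 or more. The single E-box of Bhlhe41 lay at -153, and both windows of Tef held 1, where 7.17% of all windows held any. Bhlhe41 also held GCGTG at -119 and -66, apart from its E-box. A HIF core was found in every member's window except that of Nfil3, and this motif was present in 44.0% of all windows. Hlf held 4 of them, where 8.99% of windows held 3 or more. Rora and Npas2 held 2 each, where 20.8% held 2 or more, and Rorb held 1 in each of its 2 windows. The window of Nfil3 held the sole Ror element among the members, at -12, against 6.48% of all windows. No D-box was found in a member's window, where 1.05% of all windows held one. These matches describe the letters of the windows and are not binding sites.

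**Figure D1:**
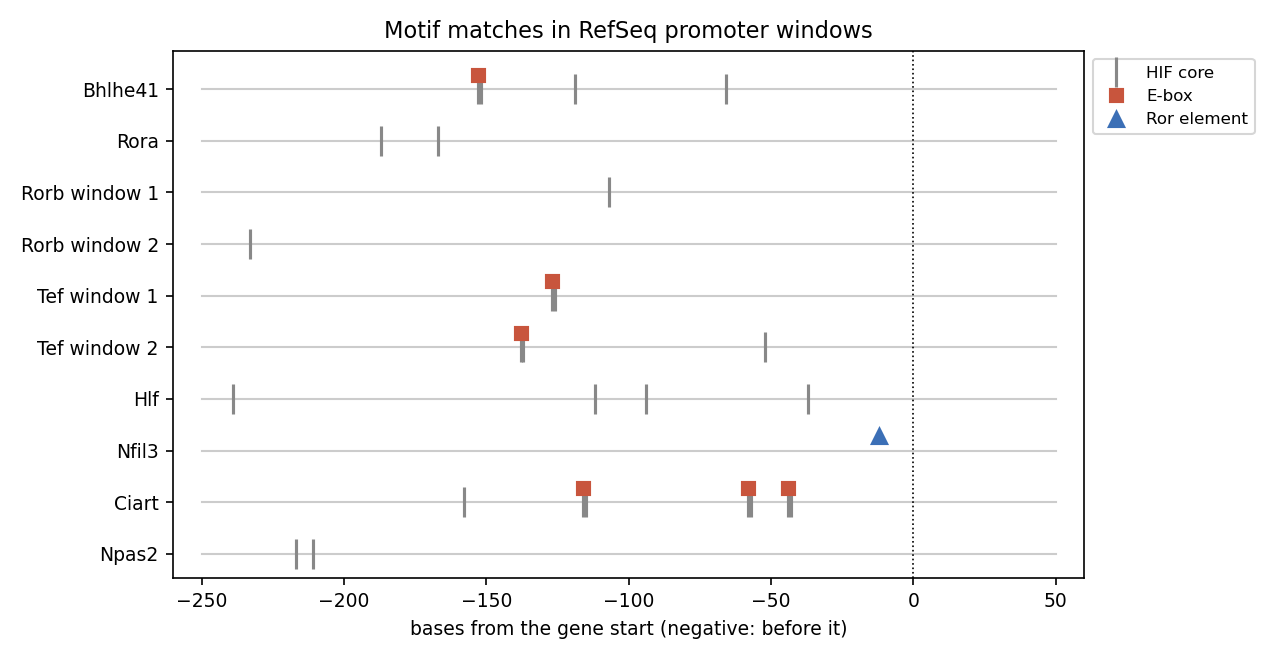
Positions of motif matches in the RefSeq promoter windows of 8 genes, in bases from the gene start, with 1 line for each window of 300 bases. Grey bars are HIF cores, squares are E-boxes and the triangle is a Ror element. Ciart carries 3 E-boxes, Bhlhe41 and each Tef window carry 1, and the Nfil3 window has no HIF core.

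Array values are log2 of the signal minus the 75th percentile of the same array, so 0 is a probe as bright as that percentile, and a step of 1 is a 2-fold change. Levels of different probes are not compared. The share of spots read well above background ran from 67.9% to 70.3% over the 6 arrays, and no spot was saturated. Each slide held the wild type array and the null array of 1 replicate number, always in the same positions, which leaves genotype and array position as effects that cannot be told apart. The 3 probes of Arid3b itself were lower in null heads, with log2 differences of -1.19, -1.37 and -2.33 and no overlap of the groups. The brightest of them (limma adjusted p of 0.0266) lost its call without any 1 null array and when dim probes were not filtered (0.0599). Its adjusted p was 0.0116 to 0.0861 over the alternatives read from that probe. The labels do not place these probes inside or outside the deleted part. All 12 measured markers of head and first arch were well above background on every array. In these bulk samples fewer cells of a type and less RNA per cell cannot be told apart.

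Of the 9 genes, 8 had a probe that all 3 arrays of one group or of both read well above background, and 7 of those 8 were called higher in null heads at an adjusted p under 0.05 in limma, none lower. Over all 14899 genes tested, 12.3% were called higher. Since these genes were chosen on this contrast, nothing is read from that count. Their median log2 difference was 1.30, against -0.04 over all genes. The 7 genes were also those whose groups did not overlap, which held for 42.4% of all genes in either direction and for 20.6% with the null arrays on top. Rorb was not called, and Npas2 was not well above background on any array. Among single probes, 8 of the 9 kept were called higher, against 9.37% of all probes kept. Both Bhlhe41 probes are in that count and passed the filter through the null arrays alone.

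**Figure D2:**
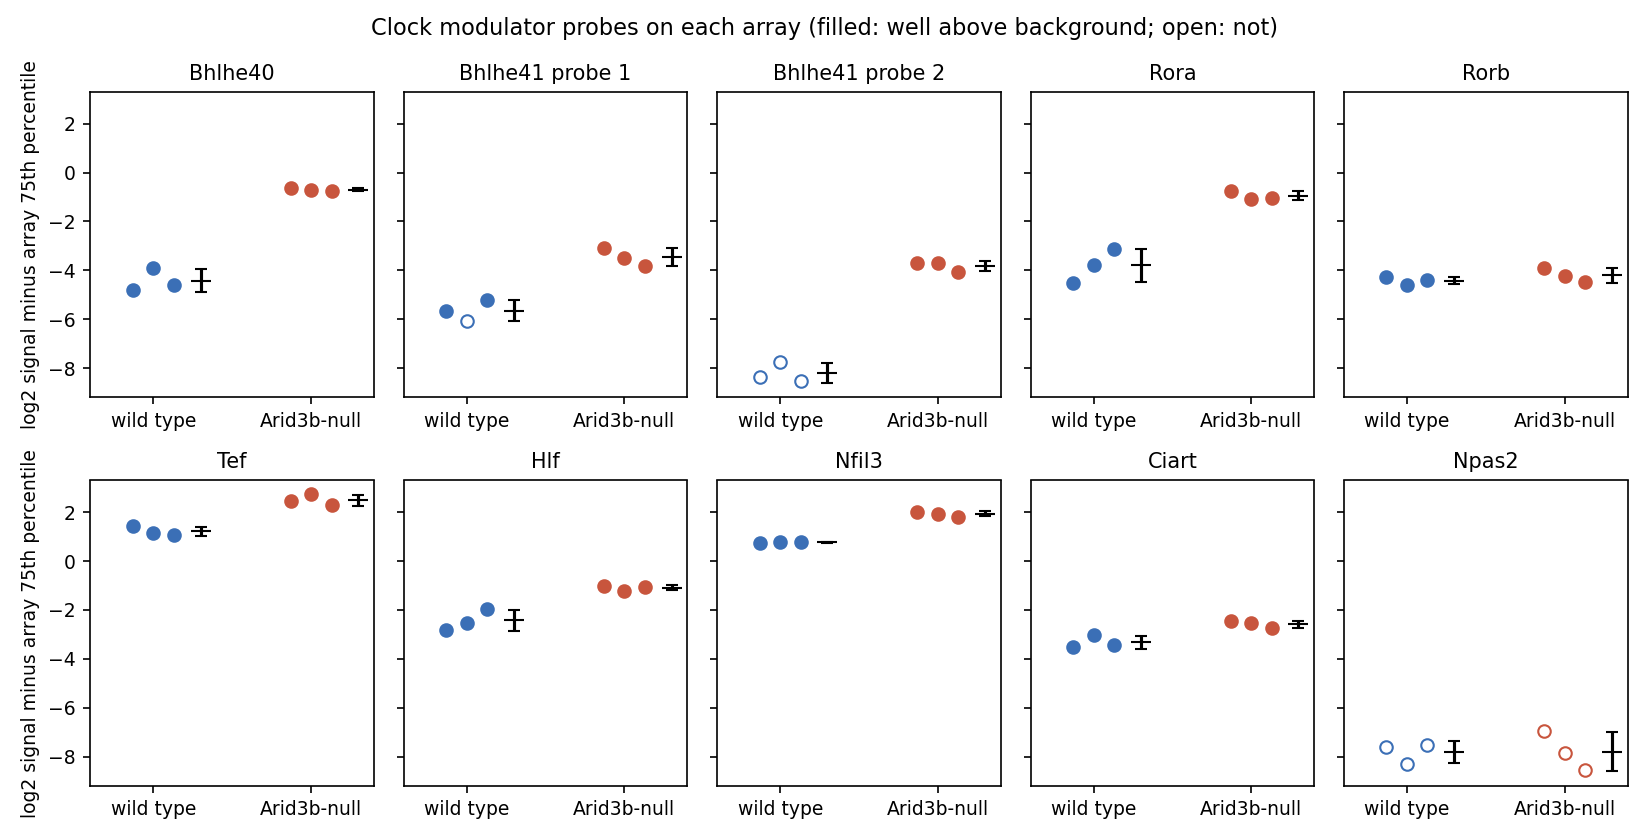
Log2 signal minus the 75th percentile of the array for each of the 10 probes on 3 wild type arrays (blue) and 3 Arid3b-null arrays (red). Bars are mean ± SD, and open points were not well above background. Null arrays lie above wild type arrays for every probe except those of Rorb and Npas2.

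Bhlhe40, a basic helix-loop-helix repressor also known as Dec1, had the largest difference of the members when each gene was read by its brightest probe. Its log2 values were -4.80, -3.89 and -4.58 in wild type replicates 1, 2 and 3, and -0.65, -0.71 and -0.77 in null replicates 1, 2 and 3. The null arrays were nearly alike, with an SD of 0.06 against 0.47 in wild type, and each lay far above all wild type arrays. The log2 difference was 3.72 ± 0.24 (SE, n = 3 per group), which is 13.1-fold, with a limma adjusted p of 4.64e-04. It ranked 5 of 14899 genes by rise. Wild type replicate 2 was the highest of its group, so the difference on its slide was the smallest, at 3.19, against 4.15 on slide 1 and 3.81 on slide 3. With normexp, another background correction, the difference was 2.34 and the gene stayed called.

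Bhlhe41, the close relative known as Dec2, was read by 2 probes that both rose but by different amounts. The brighter probe had -5.68, -6.08 and -5.23 in wild type and -3.08, -3.51 and -3.82 in null heads, and it was well above background on 2 of the 3 wild type arrays. Its log2 difference was 2.19 ± 0.27, or 4.57-fold, with a limma adjusted p of 0.00306, and it ranked 79 of 14899. The dimmer probe was not well above background on any wild type array, at -8.37, -7.75 and -8.51, and stood at -3.70, -3.71 and -4.06 in null heads. Set against the lowest signal counted as well above background, that probe was at least 7.35-fold higher, a bound that holds for the processed signal alone. Its limma adjusted p of 5.75e-04 over all probes was fitted to these wild type values as read. It does not belong to the bound. Every null value of either probe lay above every wild type value. With normexp the log2 differences were 0.53 and 0.82, and the brighter probe was no longer called (adjusted p of 0.0574, with 0.002 to 0.0574 over the alternatives read from that probe). Bhlhe41 differed less on slide 3 (1.41) than on slides 1 and 2 (2.60 and 2.57) by its brighter probe.

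The Ror factors are nuclear receptors that activate Arntl, and of Rora and Rorb only Rora was called. Rora, a receptor also needed by cerebellar neurons, had -4.50, -3.78 and -3.12 in wild type and -0.75, -1.07 and -1.04 in null heads. The wild type arrays were spread widely, with an SD of 0.69, yet the groups did not overlap. The log2 difference was 2.84 ± 0.33, or 7.18-fold, with a limma adjusted p of 0.00265, and the rank was 28 of 14899. Within slides 1, 2 and 3 it was 3.75, 2.71 and 2.08, and normexp gave 1.80, still called. Rorb, a receptor of neural and retinal tissue, had -4.28, -4.58 and -4.40 in wild type and -3.89, -4.22 and -4.48 in null heads. Its groups overlapped, and the log2 difference of 0.22 ± 0.19 did not pass (limma adjusted p of 0.429), with opposite signs on slide 1 (0.39) and slide 3 (-0.08). Each gene was read by 1 probe. Whether the differences of Rora and Rorb differ from each other was not tested, because both genes were chosen on this contrast.

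**Figure D3:**
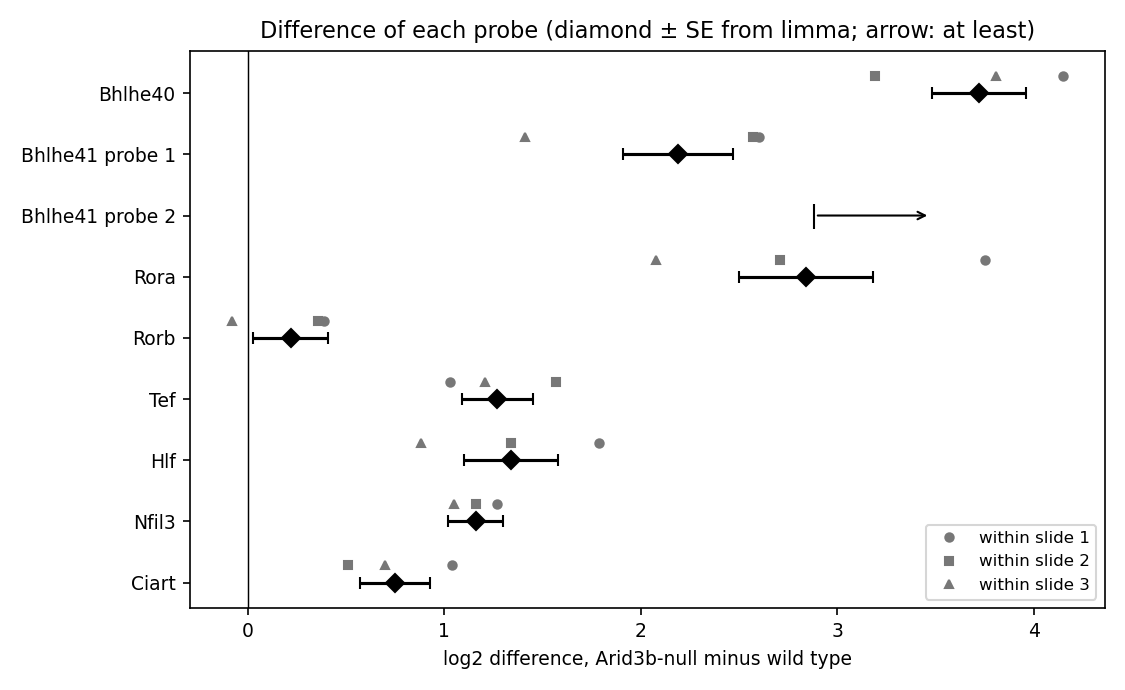
Log2 difference, Arid3b-null minus wild type, for 9 probes; Npas2 is left out because no array read it well above background. Diamonds are the difference ± SE from limma, grey marks are the differences within slides 1, 2 and 3, and the arrow starts at the lower bound of the dimmer Bhlhe41 probe. Rora (2.08 to 3.75) and Bhlhe40 (3.19 to 4.15) lie far above 0 on every slide, and Rorb falls on both sides of 0.

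Tef and Hlf are PAR-bZip activators of D-box genes, such as those of detoxification and metabolism in liver. Tef had 1.42, 1.17 and 1.07 in wild type and 2.45, 2.73 and 2.28 in null heads. The groups did not overlap, and the log2 difference was 1.27 ± 0.17, or 2.41-fold (limma adjusted p of 0.00396). Hlf had -2.80, -2.55 and -1.94 in wild type and -1.01, -1.22 and -1.06 in null heads. Its null arrays were the tighter group, with an SD of 0.11 against 0.44, and the log2 difference was 1.34 ± 0.23, or 2.52-fold (limma adjusted p of 0.0084). Both stayed called under all 16 alternatives, with ranges of 1.15 to 1.38 for Tef and 0.98 to 1.58 for Hlf. In the fit over probes the call of Hlf was lost without null replicate 1 (adjusted p of 0.0518) and without null replicate 3 (0.0504).

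Dbp, the third PAR-bZip gene and a classic output of the Clock and Arntl pair, rose as well. Its brighter probe had 0.23, 0.19 and 0.20 in wild type and 2.39, 2.50 and 2.48 in null heads, a log2 difference of 2.25 ± 0.12 (limma adjusted p of 3.10e-04), and its other probe rose by 2.02 ± 0.17. These 6 arrays form 2 tight groups.

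Nfil3, a bZip repressor that binds the same D-boxes and opposes the PAR-bZip factors, was higher as well. It had 0.75, 0.78 and 0.78 in wild type and 2.02, 1.93 and 1.82 in null heads. The wild type arrays agreed to an SD of 0.02, and the log2 difference was 1.16 ± 0.12, or 2.23-fold (limma adjusted p of 0.00203). The differences within slides 1, 2 and 3 were 1.27, 1.16 and 1.05. Thus the D-box activators Tef, Hlf and Dbp and the D-box repressor Nfil3 were all called higher in the same heads.

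Ciart, a repressor of the Clock and Arntl pair also known as Chrono, had the smallest of the called differences. It had -3.51, -3.04 and -3.44 in wild type and -2.47, -2.53 and -2.74 in null heads. The groups did not overlap, and the log2 difference was 0.75 ± 0.17, or 1.68-fold (limma adjusted p of 0.0218). The call was lost without wild type replicate 1 (log2 0.66, adjusted p of 0.0676), null replicate 1 (0.69, 0.0926) and null replicate 2 (0.72, 0.0746), with normexp (0.31, 0.201) and when dim probes were not filtered (0.75, 0.0506). The adjusted p of Ciart lay between 0.0194 and 0.201 across alternatives.

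Npas2, which can stand in for Clock in the brain, lay on every array below the lowest signal counted as well above background. Its values were -7.60, -8.32 and -7.52 in wild type and -6.96, -7.84 and -8.56 in null heads, none well above background. The groups overlapped on both sides, and no fold is given.

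**Figure D4:**
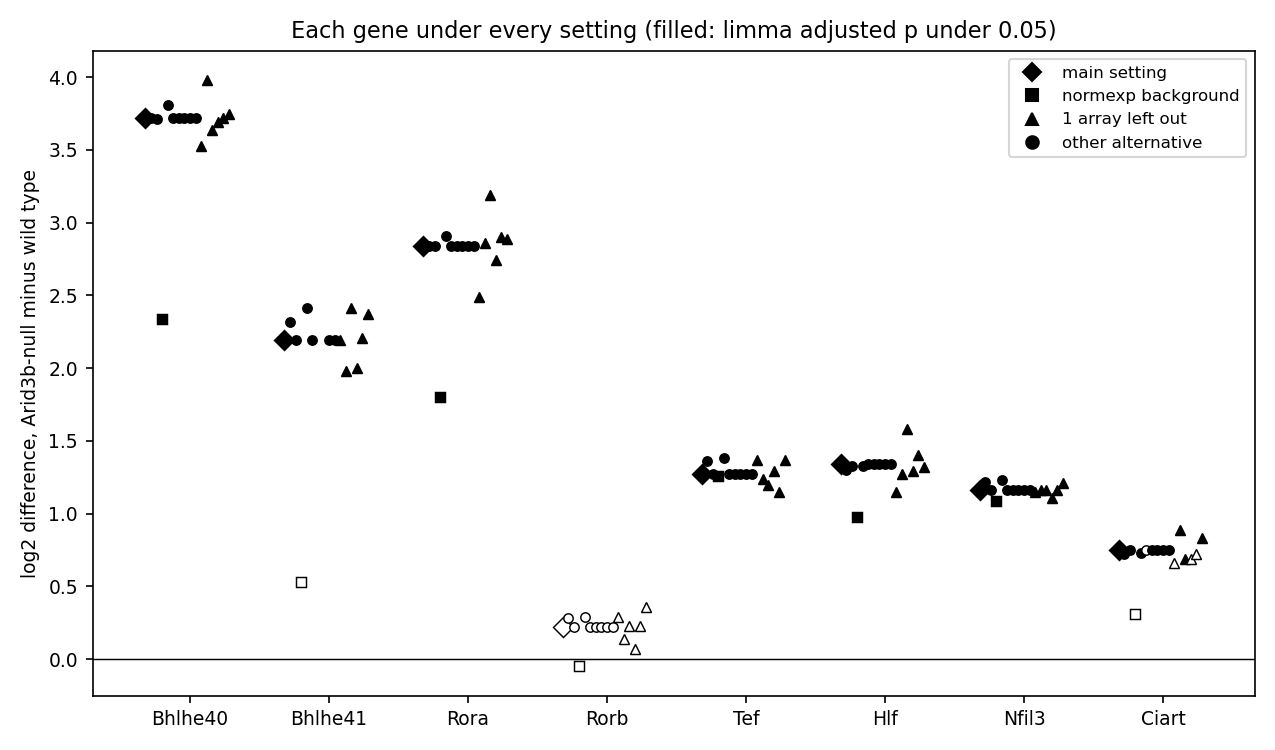
Log2 difference of the 8 tested genes under the main setting (diamonds) and each alternative: normexp background correction (squares), 1 array left out (triangles) and the others (circles). Filled marks have a limma adjusted p under 0.05. The mean of both Bhlhe41 probes is not drawn, as 1 of them gives only a bound. Bhlhe40, Rora, Tef, Hlf and Nfil3 are filled throughout, Rorb never is, and the normexp values of Bhlhe40, Bhlhe41 and Rora lie well below their other values.

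The genes with the patterns most like each called gene were named by Pearson's r over the 6 arrays, among 14890 other genes. As the 2 groups lie apart, many genes score high: 702 genes had an r above 0.95 with Bhlhe40, and 171 had one with Ciart. Ier3, an immediate early gene, was most like Bhlhe40 (r = 0.9987, log2 difference 3.34), followed by Ero1a, an oxidase of the endoplasmic reticulum that stands on the HIF target list (r = 0.9979, log2 difference 2.40), and Plekha2 (r = 0.9979, log2 difference 2.61). Pdgfb, a growth factor gene, was most like Rora (r = 0.9980, log2 difference 1.22), and the receptor kinase gene Kit was most like Hlf (r = 0.9986). For Nfil3 it was Tfap2a, a neural crest regulator (r = 0.9993, log2 difference 0.97), and for Tef it was Nsg2 (r = 0.9997, log2 difference 0.87). Islr2 came first for Bhlhe41 (r = 0.9977) and Uaca for Ciart (r = 0.9948). These values describe 6 arrays that share 1 contrast.

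Deviations within groups, by the brightest probe of each gene, differed from gene to gene. In wild type heads Rora and Hlf were lowest on replicate 1, by 0.71 and 0.37 below their group means, and highest on replicate 3, by 0.68 and 0.49 above them. Bhlhe40 and Ciart were instead highest on wild type replicate 2, by 0.53 and 0.29, where Bhlhe41 was lowest, at -0.42. The dimmer Bhlhe41 probe, not well above background in wild type, was highest on that array (-7.75), so its probes do not share this order. In null heads the deviations of Bhlhe40, Hlf and Nfil3 stayed within 0.12 of the mean, and those of Bhlhe41 reached 0.39 and -0.35.

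The rest of the clock moved in both directions. Of 18 core clock genes 17 were measured, and 7 were called higher and 3 lower, with a median log2 difference of 0.36, also with 2 genes not well above background in wild type set at their bounds; over all genes 12.3% were called higher and 11.2% lower. Arntl, the partner of Clock and the target of Ror and Nr1d factors, fell from -2.50, -2.66 and -2.43 to -3.81, -4.11 and -3.68, a log2 difference of -1.34 ± 0.16 (limma adjusted p of 0.00283, called under every alternative). All null arrays lay below all wild type arrays. Clock itself overlapped between groups (-0.54 ± 0.41, limma adjusted p of 0.381). Of the genes that Clock and Arntl drive, Nr1d1, Per3, Nr1d2 and Per1 were called higher, at 1.60, 1.20, 0.71 and 0.64, whereas Per2 (0.46), Cry1 (0.36) and Cry2 (0.18) did not pass. Per1 lost its call without any 1 array other than wild type replicate 3 (adjusted p of 0.00636 to 0.117 over its alternatives), and Per3 with normexp or without 1 of 4 arrays (replicates 1 and 2 of wild type, 1 and 3 of null) (0.00464 to 0.309). Per1 (0.0663) and Per3 (0.0593) also lost it when dim probes were not filtered. Nr1d2 lost it without null replicate 1 (0.0623) and with normexp (0.13), and Nr1d1 with normexp (0.0816). These genes, like Btrc and Csnk1d below, were singled out after their values were seen.

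Fbxl21, an F-box gene acting on Cry proteins, did not stand well above background on any wild type array and was at least 1.67-fold higher. Its limma adjusted p of 0.00304 was fitted to the wild type values as read and does not belong to that bound. With normexp its log2 difference was 0.03 and it was not called. Btrc, an F-box gene acting on Per proteins, also fell, at -1.70 ± 0.21, with -1.14 on its other probe. Csnk1d, a kinase of Per proteins, was lower by its brightest probe (-0.47, adjusted p of 0.0448) and higher by its other probe (0.91), and its lower call held under 6 of 15 alternatives. With the authors' deposited value table each gene was read by the brightest kept probe present there. Csnk1d was then called higher (0.93, limma adjusted p of 0.0367), a value near that of its other probe. With normexp 2 core clock genes were called higher in place of 7, and without null replicate 1 the count was 4.

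HIF targets, the genes that low oxygen induces together with Bhlhe40 and Bhlhe41, were mostly higher. Of 23 measured, 18 were called higher and none lower, against 12.3% and 11.2% of all genes. The difference was above 0 for 22 of them, and the median log2 difference was 1.68. Ndufa4l2 (4.09 ± 0.14), Car9 (3.40 ± 0.15), Ddit4 (3.09 ± 0.15) and P4ha1 (1.84 ± 0.13) had the smallest p. Bhlhe40, at 3.72, lay between Ndufa4l2 and Ndrg1 (3.51) in size. Bhlhe41, at 2.19 by its brighter probe, lay between Bnip3 (2.39) and Ankrd37 (2.06), while its dimmer probe, with a lower bound of 2.88, lay above both. The summed signal of the list, in multiples of each array's 75th percentile, was 484 to 577 in wild type and 971 to 1100 in null heads. Wild type replicate 2, the highest of its group for Bhlhe40, was the highest for 12 of the 23 HIF targets, replicate 1 for 5 and replicate 3 for 6. The same array had the highest heart marker sum, at 5.17 against 1.38 and 2.09 in the other wild type pools. The part of this list in the clock gene values was not tested.

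Relatives of the members by protein family were called in both directions, where 12.3% of all genes were called higher and 11.2% lower. Among the 9 Hes and Hey genes, which share the Orange domain with Bhlhe40 and Bhlhe41, none was called higher and 3 were lower: Heyl (-2.61 ± 0.14, limma adjusted p of 3.10e-04), Hes2 (-0.99 ± 0.20) and Hes6 (-0.57 ± 0.16). Without null replicate 1 or without null replicate 3 Heyl alone was called, without wild type replicate 3 it was 5 of the 9, and Hes6 held its call under 5 of 15 alternatives. Of 13 measured bHLH-PAS genes, the family of Npas2, Hif3a (1.52 ± 0.17) and Ahr (1.32 ± 0.16) were higher and Arntl and Hif1a (-0.83 ± 0.16) lower. That was 15.4% in each direction, near the shares over all genes. In the fit over probes, other probes of Arnt (1.05) and Sim2 (0.82) were called higher, and those of Epas1 and Npas3 were not called. Other probes of Hif3a differed: 1 was called higher (1.42), and 1 had overlapping groups and was not called (0.62, limma adjusted p of 0.133). Hif1a, the oxygen-regulated HIF subunit, lost its call without null replicate 1 (log2 -0.76, adjusted p of 0.0625) and null replicate 2 (-0.80, 0.0509). In the C/EBP group, bZip factors related to Nfil3 and the PAR-bZip genes, Ddit3 rose (2.50 ± 0.16), and Cebpa, Cebpb, Cebpd and Cebpg did not pass. No family was tested as a set.

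**Figure D5:**
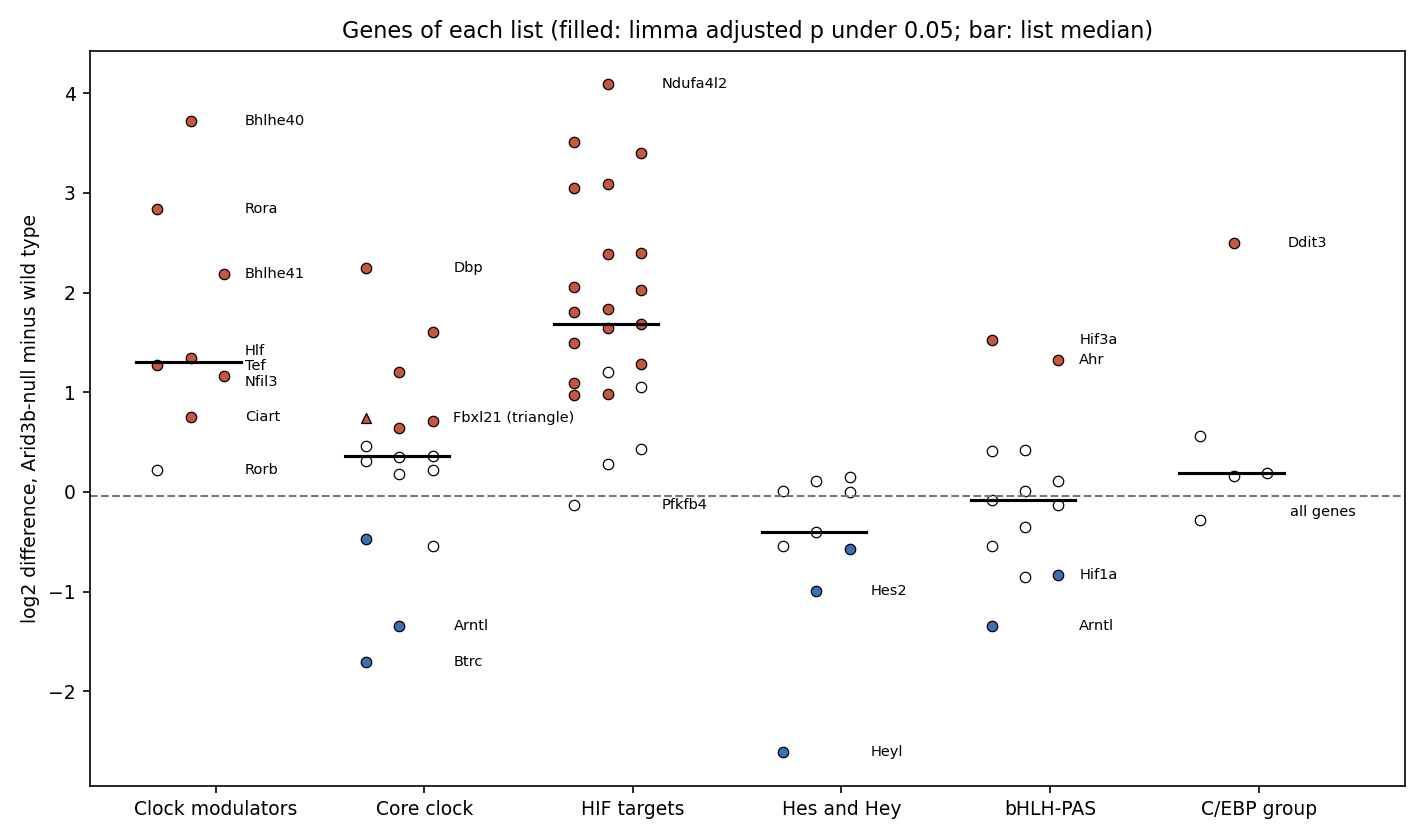
Log2 difference, Arid3b-null minus wild type, of the measured genes of 6 lists, 1 point per gene at its brightest probe, with a triangle at the lower bound of Fbxl21; 1 core clock gene that counts toward the median is not drawn. Filled points have a limma adjusted p under 0.05 (red higher, blue lower), bars are list medians and the dashed line is the median of all genes. The clock modulators have a median of 1.30, HIF targets 1.68, core clock genes 0.36 and Hes and Hey genes -0.40.

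Markers of the tissue and of other cell types were read beside these values, where 12.3% of all genes were called higher and 11.2% lower. Of the 12 head and arch markers 5 were called lower, Lhx8 (-3.15 ± 0.26) and Barx1 (-2.34 ± 0.25) among them, and Otx2 was called higher (0.57 ± 0.16). Prrx1, also among the 5, was lower by its brightest probe (-0.85) and higher by its other probe (0.68), which was not called. The summed signal of the 12 was 34.1 to 37.8 in wild type and 33.1 to 38.2 in null heads. Without wild type replicate 3, 5 of these markers were called higher, and without any other 1 array none was. Of 8 neuronal genes 3 were called lower and none higher. Their summed signal was 8.24 to 11.1 in wild type and 5.33 to 6.45 in null heads, in multiples of the 75th percentile. Without wild type replicate 1, null replicate 1 or null replicate 3 the number called lower was 1. Of 7 measured macrophage genes 4 were called lower, with sums of 1.82 to 3.70 and 1.59 to 2.63. That number was 2 without null replicate 1, and it was 1 when null replicate 2, null replicate 3 or wild type replicate 1 was left out. Erythroid sums (633 to 856 and 488 to 1000), endothelial sums (8.70 to 12.7 in wild type, with the null arrays inside that range) and heart sums (1.38 to 5.17 and 1.96 to 2.23) overlapped between groups. By the brightest probe 1 of these genes, the erythroid factor Klf1, was called (lower). That call was lost without null replicate 1 or 3 and when dim probes were not filtered. Endothelial Kdr was not called by its brightest probe (-0.22), but its other probe was called higher in the fit over probes (0.76). All the marker genes measured were well above background on every array, but passing a background filter was part of being measured. Of 8 heart and 8 macrophage markers listed, 7 of each passed, and Myl7 and Ptprc did not. The part of any of these marker lists in the clock gene values was not tested.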

How the data were processed

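Each array carried a single dye, Cy3. Per the file headers, spots were read by Feature Extraction 10.7.3.1 (Agilent), and the deposited intensity is background-subtracted and detrended; raw median intensities, used for normexp, and 0 or 1 flags were deposited beside it. The authors' deposited value table holds log2 values of unstated scaling and served as an alternative. The sources used here do not give its making. The members and lists were chosen with earlier results of these data known.

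Values are log2 of the deposited intensity minus the 75th percentile of the array. Control spots and spots with an outlier flag were dropped, and repeat spots were averaged per probe. RefSeq gave 1 symbol to 26424 of 39429 probes through RefSeq accessions (GRCm38 table), 0 with several and 13005 with none. A filter kept 26281 probes that every array of one group read well above background and that were measured on at least 5 arrays. The brightest kept probe stood for each of 14899 genes. Groups were compared with limma 3.58.1 in R 4.3.3 (lmFit, eBayes, Benjamini-Hochberg over all genes, or over all probes), tested on simulated data. Bounds set the bright group against the higher of the dim probe and the lowest signal well above background. Named were all members, Arid3b, up to 4 called genes per list with the smallest p and, for each called member, 3 genes of highest Pearson r; further genes were singled out with their values in view. A core clock gene that this rule names is counted in its list but not reported here. No slide or array was left out, and the number of arrays limits precision. For normexp (offset of 50) raw median signals were used, since no mean signals are in the files used here.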

Additional observations from a re-analysis of the deposited data

How the results depend on the processing

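The count of 3503 genes called was 2270 when dim probes were not filtered and 1269 at an adjusted p under 0.01, and it ran from 1511 to 5197 with 1 array left out. Under the other alternatives (quantile normalization, median centring, normexp, the deposited value table, probes above background on every array, the mean of a gene's probes, an intensity trend with robust variance) it stayed within 1.5 times. The number of clock modulators called ran from 5, with normexp, to 7, all higher. With 1 array left out it was 6 to 7 for genes and 6 to 8 for probes. The count over the clock, HIF target, Hes and Hey, bHLH-PAS and C/EBP lists, 35 of 65 genes, was 27 to 40; the marker lists are not in this count. In the fit over genes, Bhlhe41 and Ciart were the members whose call was lost under an alternative, and in the fit over probes Hlf lost it too. Rorb was not called under any. Normexp changed the background method, the offset and the input signal together, and which of them lowered the differences of dim probes was not tested. Signal over background limits Npas2 and the dimmer Bhlhe41 probe.

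With the replicate number, which is also the slide, as a block, 7 clock modulators, 8 of their probes, 36 listed genes and 3685 genes in all were called, and no member's call changed. Deviations from the group means correlated at -0.20, 0.15 and 0.42 for arrays of number 1, 2 and 3, and wild type array 1 correlated best with null array 2 (0.49), so the numbers are not taken to pair the samples.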
